A study of Homo sapiens with 22 samples.

Results

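CTCF sites without any RAD21 peak were 18958 of the 59138 CTCF peaks in hTERT RPE-1 cells, human retinal pigment epithelium kept growing by added telomerase. This was 32.1% of the CTCF list (95% Wilson interval 31.7 to 32.4%). A CTCF peak was counted here when it shared not even 1 bp with a peak of any of 6 RAD21 lists, and the remaining 40180 CTCF peaks, which overlapped RAD21 in at least 1 list, served for comparison. The members were therefore chosen by RAD21 peak calls, and everything about RAD21 below is a description of that choice.

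CTCF is a zinc-finger protein that reads a long DNA motif. Cohesin is the ring complex that extrudes chromatin loops, and it is held where it meets CTCF, so that most well-bound CTCF sites are usually also cohesin sites. RAD21 is the kleisin that closes the ring, STAG1 and STAG2 are alternative subunits that touch CTCF, PDS5A is a regulator that binds the kleisin, WAPL releases cohesin from chromatin, and NIPBL drives its loading and movement. At gene starts CTCF can lie beside the transcription machinery.

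The chromatin immunoprecipitations came from 12 libraries with a peak list, 1 library in each group, so no difference has a replicate check and no p-value is given. The CTCF and WAPL libraries came from wild-type cells. RAD21 came from clone A2, labelled mCherry-P2A-FKBP12(F36V)-NIPBL, and from clone D7, labelled mGreenLantern-P2A-FKBP12(F36V)-NIPBL. FKBP12(F36V) is a degron that makes NIPBL degradable by dTAGV-1, and both clones carry it in every condition, solvent included. In each clone RAD21 was mapped after 24 h of DMSO and after 4 h and 24 h of dTAGV-1, in cycling cells. STAG1 and STAG2 were mapped in untreated D7 cells against a shared input, PDS5A in D7 cells after 24 h of DMSO against the input of the RAD21 library of that condition, and HA in A2 cells. CTCF and RAD21 thus never came from the same cells: wild type was set against 2 edited clones. No expression was measured, so the labelled cell type could not be checked against its markers.

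The strongest CTCF peaks without RAD21 often lay just upstream of a gene, and the promoter sequences of the 5 strongest with a summit inside a RefSeq promoter window (GRCh38.p14, 250 bases before to 50 after the start, 5′ to 3′ along the gene) are shown because the results on gene starts and motifs turn on them. Capitals mark a match to the CTCF core consensus, a textbook stretch of 12 positions, on either strand with at most 1 mismatch. DHX34 is on the plus strand at chr19:47349065-47349364, RNF14 on the plus strand at chr5:141968855-141969154, YTHDF2 on the plus strand at chr1:28736690-28736989, POLR2C on the plus strand at chr16:57462429-57462728 and DPP8 on the minus strand at chr15:65517640-65517939.
DHX34: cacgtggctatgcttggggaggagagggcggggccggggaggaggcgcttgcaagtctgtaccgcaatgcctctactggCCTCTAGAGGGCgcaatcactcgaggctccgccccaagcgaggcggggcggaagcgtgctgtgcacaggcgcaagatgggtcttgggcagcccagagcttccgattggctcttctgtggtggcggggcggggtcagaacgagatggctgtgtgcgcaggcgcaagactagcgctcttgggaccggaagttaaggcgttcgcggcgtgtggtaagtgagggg
RNF14: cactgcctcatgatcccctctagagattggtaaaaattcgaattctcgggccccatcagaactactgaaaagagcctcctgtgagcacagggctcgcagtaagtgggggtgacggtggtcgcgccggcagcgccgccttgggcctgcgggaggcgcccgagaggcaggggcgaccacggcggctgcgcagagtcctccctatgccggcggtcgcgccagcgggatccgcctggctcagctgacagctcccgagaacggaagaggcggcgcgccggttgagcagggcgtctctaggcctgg
YTHDF2: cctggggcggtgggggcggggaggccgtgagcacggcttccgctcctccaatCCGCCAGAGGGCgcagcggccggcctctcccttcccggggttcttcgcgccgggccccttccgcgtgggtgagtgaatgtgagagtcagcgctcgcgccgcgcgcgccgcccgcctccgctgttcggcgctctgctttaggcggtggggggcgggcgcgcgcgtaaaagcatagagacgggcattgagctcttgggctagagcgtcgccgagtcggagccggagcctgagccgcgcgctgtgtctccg
POLR2C: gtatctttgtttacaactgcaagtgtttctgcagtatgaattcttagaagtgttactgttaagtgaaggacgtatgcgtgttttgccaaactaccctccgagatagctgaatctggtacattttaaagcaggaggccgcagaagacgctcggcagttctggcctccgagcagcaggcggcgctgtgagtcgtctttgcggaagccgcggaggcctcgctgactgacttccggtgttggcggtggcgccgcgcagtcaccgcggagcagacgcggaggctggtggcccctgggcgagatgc
DPP8: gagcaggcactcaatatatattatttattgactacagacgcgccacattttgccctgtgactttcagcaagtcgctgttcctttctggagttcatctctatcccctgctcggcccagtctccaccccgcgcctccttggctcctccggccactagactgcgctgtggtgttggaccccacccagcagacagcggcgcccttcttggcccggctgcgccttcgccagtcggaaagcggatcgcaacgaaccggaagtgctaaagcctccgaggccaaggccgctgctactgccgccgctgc

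For comparison, the windows of the 2 strongest CTCF peaks chosen the same way among those with RAD21 are given next. COMTD1 is on the minus strand at chr10:75235908-75236207 and VPS36 on the minus strand at chr13:52450585-52450884. Both overlapped RAD21 in all 6 lists, and STAG1, STAG2 and PDS5A as well.
COMTD1: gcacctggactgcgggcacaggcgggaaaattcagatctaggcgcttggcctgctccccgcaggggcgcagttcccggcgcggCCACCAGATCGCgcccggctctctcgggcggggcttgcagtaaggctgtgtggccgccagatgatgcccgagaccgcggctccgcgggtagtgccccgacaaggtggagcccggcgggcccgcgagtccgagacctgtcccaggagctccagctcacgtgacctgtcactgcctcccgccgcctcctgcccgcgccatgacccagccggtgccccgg
VPS36: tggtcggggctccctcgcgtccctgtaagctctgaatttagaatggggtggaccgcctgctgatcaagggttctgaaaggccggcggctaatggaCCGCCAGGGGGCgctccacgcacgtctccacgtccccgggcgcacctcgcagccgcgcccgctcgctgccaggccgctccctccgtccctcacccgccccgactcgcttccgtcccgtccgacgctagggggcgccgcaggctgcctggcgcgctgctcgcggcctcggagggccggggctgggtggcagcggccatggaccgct

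In the DHX34 window the match covered bases 80 to 91 and the CTCF summit lay at base 82. In the YTHDF2 window it covered bases 53 to 64 with the summit at base 63. The windows of RNF14, POLR2C and DPP8 held no match, their closest stretches having 3, 2 and 2 mismatches, which says only that these letters are not in those windows. The COMTD1 and VPS36 windows each held 1 match, at bases 84 to 95 and 96 to 107, with summits at bases 120 and 154.

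CTCF peaks without RAD21 were mostly weak CTCF peaks. Their median CTCF fold enrichment over local background was 5.57 (95% interval of the median 5.53 to 5.63), against 32.4 (31.9 to 32.9) for those with RAD21, a ratio of 0.172. The central 90% of the members spanned folds of 3.27 to 22.5, and the highest was 165. The median summit pileup, recovered from fold and p, was 88 fragments against 538, over local backgrounds of 14 and 15, so the difference lay in the CTCF signal and not in the background. The peaks were also narrower, with a median width of 475 bp against 862 bp.

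The share without RAD21 fell with CTCF strength. When all CTCF peaks were ranked by fold and divided into deciles, 71.5% of the weakest decile had no RAD21 peak, and 71.1%, 62.1%, 49.4%, 34.7%, 19.3%, 7.58%, 2.91% and 1.35% of the next ones. In the strongest decile it was 0.676%, or 40 peaks. The reverse view gave the same order, since the median CTCF fold was 7.89 for peaks with RAD21 in 1 list, 11.4 in 2, 19.2 in 3, 19.8 in 4, 24.4 in 5 and 57.3 in all 6 lists. The lowest background pileup of a list, which scales with depth, was 13.4 in the CTCF list and 1.87 to 4.05 in the RAD21 lists, and CTCF peaks were called at a stricter q (0.001 against 0.01). The part of this gap in depth in the weakness of the members was not tested.

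**Figure D1:**
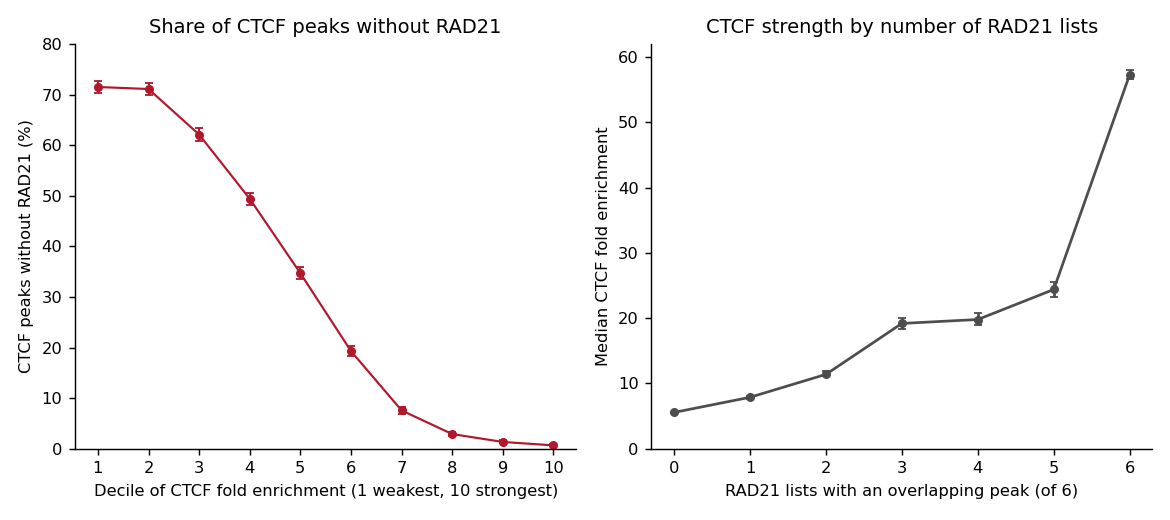
Left, percentage of CTCF peaks without any RAD21 peak (y axis) by decile of CTCF fold enrichment (x axis), with 95% Wilson intervals; it falls from 71.5% in the weakest decile to 0.676% in the strongest. Right, median CTCF fold enrichment with its 95% interval (y axis) by the number of RAD21 lists that overlap the peak (x axis), from 5.57 at 0 lists to 57.3 at 6.

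Each of the lists contributed to the rule. Taken alone, the A2 lists left 42.6% (DMSO), 57.8% (4 h) and 56.4% (24 h) of CTCF peaks without RAD21, and the D7 lists 47.2%, 48.4% and 54.1%. Leaving out 1 list raised the members from 18958 to between 19141 (A2 at 4 h) and 20651 (D7 at 4 h). With the 2 DMSO lists only, 38.0% of the CTCF peaks had no RAD21.

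The edge of the rule was thin. Among the members, 69 lay within 100 bp of a RAD21 peak and 515 within 500 bp, whereas 10419 (55.0%) lay over 10 kb from one, and the median gap was 12032 bp. Just inside were the peaks nearest HAUS3 (CTCF fold 9.50, touching a RAD21 peak with a gap of 0 bp), CDK20 (8.54, 3 bp), AMT (2.94, 4 bp), LRRC8B (4.03, 5 bp) and TMEM256 (3.89, 7 bp). Just outside were those nearest CORO2B (3.20, overlapping by 3 bp), EXOC2 (5.49, 3 bp), KANSL1L (3.60, 4 bp), SEC31A (3.02, 7 bp) and TBC1D24 (3.34, 8 bp). Of the comparison peaks, 74 overlapped RAD21 by no more than 100 bp.

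Few of these sites had a peak of the other cohesin subunits. Over all CTCF peaks, 40.0% overlapped a STAG1 peak and 32.3% a STAG2 peak. Of the members, 196 had STAG1 (1.03%, 0.899 to 1.19%) and 119 had STAG2 (0.628%, 0.525 to 0.751%), whereas 58.4% and 47.3% of the CTCF peaks with RAD21 did. Neither list was used by the rule. The gap remained among peaks of like CTCF strength: with the comparison peaks weighted to the members' fold deciles, 32.4% had STAG1 and 12% had STAG2, so the members differed by -31.4 percentage points (-32.2 to -30.5) for STAG1 and by -11.3 points (-11.8 to -10.9) for STAG2. Where the subunits did occur they were weak. The median STAG1 fold was 4.21, against 12.3 at CTCF with RAD21 and 4.0 at STAG1 peaks away from CTCF. The median STAG2 fold was 5.31, against 12.3 and 4.59. These folds were not matched on CTCF strength. Only 4 members carried both subunits. The lowest background pileup was 1.77 in the STAG1 list and 3.14 in the STAG2 list, against 13.4 for CTCF, and the part of depth in these low shares was not tested.

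PDS5A occurred at more of them than either subunit. PDS5A overlapped 36.6% of all CTCF peaks, 988 members (5.21%, 4.90 to 5.54%) and 51.4% of the CTCF peaks with RAD21, or 30.6% of the latter when weighted to the members' deciles. Of those 988 members, 934 had PDS5A with neither STAG1, STAG2 nor WAPL. The median PDS5A fold was 4.06 against 10.9 at CTCF with RAD21 of all strengths and 3.59 at PDS5A peaks away from CTCF. In 67.9% of the overlapping pairs the 2 summits were within 200 bp of each other, against 86.6% at CTCF with RAD21. WAPL overlapped 4.46% of all CTCF peaks and 2 members (0.0105%), against 6.56% of the others. HA overlapped 0.26% of all CTCF peaks and 0 of 18958 members (upper Wilson bound 0.0203%), but the whole HA list held only 230 peaks. In all, 17711 members (93.4%) overlapped none of STAG1, STAG2, PDS5A and WAPL.

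Peak calls of PDS5A and of the STAG subunits parted at the strong end. Within the members, the share with PDS5A was 5.11% in the weakest fold decile, 6.19% in the fifth, 12.5% in the seventh and 42.5% in the strongest (17 of 40, 28.5 to 57.8%). In that strongest decile STAG1 was found at 0 of 40 members and STAG2 at 1 of 40. CTCF peaks with RAD21 in the same decile had STAG1 at 94.6%, STAG2 at 78.7% and PDS5A at 92.0%. The strong members with PDS5A were thus without called peaks of the accessory subunits that accompanied it at RAD21-bearing CTCF peaks of the same decile. Their PDS5A folds at gene starts ran from 3.13 (EIF1B) to 22.1 (RPS15), with 4.36 at DHX34, against a median of 10.9 at CTCF with RAD21 of all strengths. Counting only partner peaks with a -log10 q of at least 10, PDS5A remained at 1.76% of all members and STAG1 at 0.359%. The lowest background pileup of the PDS5A list was 2.76, and the part of depth was not tested.

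**Figure D2:**
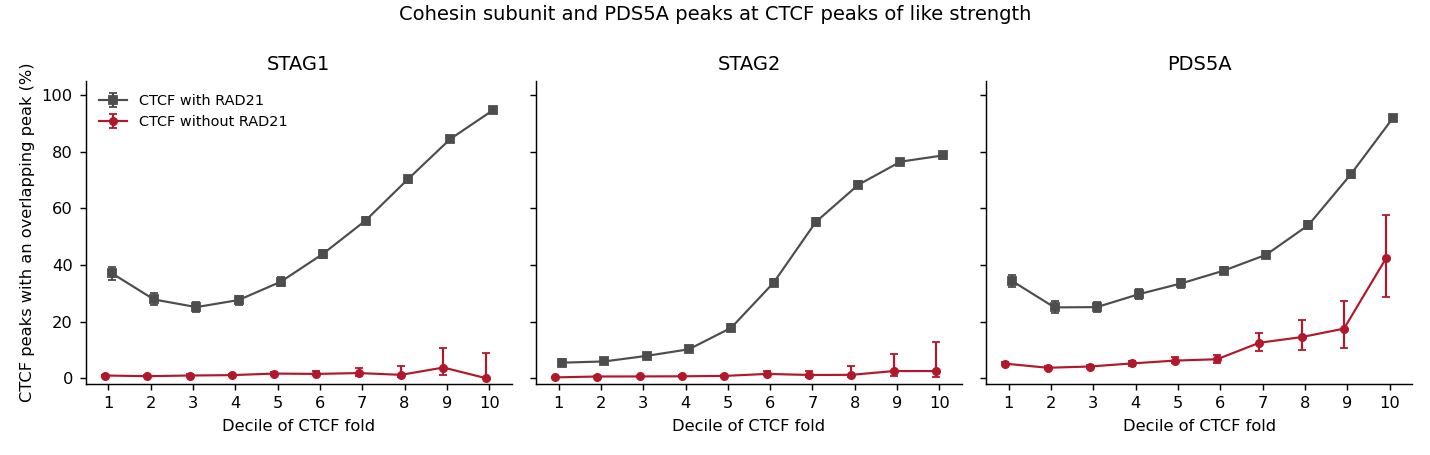
Percentage of CTCF peaks that overlap a STAG1, STAG2 or PDS5A peak (y axes) by decile of CTCF fold enrichment (x axes), for CTCF peaks without RAD21 (red circles) and with RAD21 (grey squares), with 95% Wilson intervals. At CTCF peaks without RAD21, STAG1 and STAG2 stay near 0 in every decile while PDS5A reaches 42.5% in the strongest.

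Gene starts were less common among the members in all, and more common among the strong ones. Of all CTCF peaks outside chromosome 8, for which the start table holds no window, 9.85% had the summit within 1 kb of a protein-coding gene start. The members had 1303 of 18108 (7.20%, 6.83 to 7.58%) and the others 4262 of 38368 (11.1%), a difference of -3.91 percentage points (95% Newcombe interval -4.40 to -3.42). Among weak peaks the difference was wide, with 10.1% of the members and 38.9% of the others at a gene start in the weakest decile. It turned around with strength. In the strongest decile 16 of 39 members (41.0%, 27.1 to 56.6%) lay at a gene start against 10.6% of the others, a difference of 30.4 points (16.4 to 46.0). Over the strongest 3 deciles it was 55 of 282 (19.5%) against 7.44%, a difference of 12.1 points (7.84 to 17.1). The direction for all members also turned when only RAD21 peaks with a -log10 q of at least 10 counted (1.05 points, 0.545 to 1.56) and when only the upper 50% of CTCF peaks entered (2.72 points).

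The strong members at gene starts lay mostly just upstream. The 55 members of the strongest 3 deciles at a gene start had their summits at a median of 100 bp upstream of it (interval of the median 71 to 135 bp), and 43 of them (78.2%, 65.6 to 87.1%) were upstream. Of all 1303 members at a gene start 50.4% were upstream, and of the others, at all strengths, 54.7%. The position of the others in the strongest 3 deciles was not measured, so the upstream layout is not shown to be particular to members. The 16 genes of the strongest decile were DHX34, RNF14, YTHDF2, POLR2C, DPP8, WDR70, HIF1AN, MUS81, API5, TAMM41, EIF1B, TOX4, HNRNPDL, EXD1, RPS15 and NKIRAS2. Several have broad roles in the cell: YTHDF2 is a reader of N6-methyladenosine in mRNA, POLR2C is a subunit of RNA polymerase II, HIF1AN hydroxylates hypoxia-inducible factor, MUS81 is a structure-specific endonuclease, and RPS15 is a ribosomal protein. PDS5A overlapped 12 of the 16 (75%, 50.5 to 89.8%), all but WDR70, TAMM41, EXD1 and NKIRAS2. This was below the share at gene-start CTCF peaks with RAD21 in the same decile, 581 of 603 (96.4%, 94.5 to 97.6%).

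The 8 strongest members show both kinds. At DHX34, an RNA helicase gene of nonsense-mediated decay, the CTCF peak (chr19:47348683-47349639) had a fold of 144, lay 169 bp upstream of the start and overlapped a PDS5A peak of fold 4.36. At RNF14, a ubiquitin ligase gene, the peak (chr5:141968497-141969757) had a CTCF fold of 126 and a PDS5A fold of 8.76. The POLR2C peak (chr16:57462127-57463089) had a CTCF fold of 121 and a PDS5A fold of 10.5, 74 bp upstream of the start. The gaps from the 5 gene-start peaks to the nearest RAD21 peak were 41458 bp at DHX34, 7194 bp at RNF14, 47382 bp at YTHDF2, 39181 bp at POLR2C and 81233 bp at DPP8. The median gap of all members was 12032 bp. Others of the 16 were nearer, with 506 bp at HNRNPDL and 4260 bp at NKIRAS2. CTCF folds were 125 at YTHDF2 and 121 at DPP8, where PDS5A folds were 4.58 and 4.03.

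The 3 others of the 8 lay away from gene starts. The strongest member (chr7:98878662-98880109, fold 165, rank 113 among all CTCF peaks) lay in TRRAP, which encodes a scaffold of histone acetyltransferase complexes, and overlapped none of the partner peaks. Its nearest RAD21 peak was 5964 bp away, and its nearest RAD21-bearing CTCF summit 6588 bp. The second (chr20:31513768-31514842, fold 146) also had no partner peak, and the peak at chr6:44312898-44313910 (fold 125) had PDS5A at a fold of 3.93. The 4 strongest members with no partner peak were completed by WDR70 (chr5:37378677-37379634, fold 111, 120 bp upstream of the start) and by a peak in XRCC5, which encodes the Ku80 subunit (chr2:216114376-216115285, fold 106). The strongest member with STAG1 (chr7:43985618-43986508, CTCF fold 79.8) had STAG1 at 6.24 and PDS5A at 10.5. The strongest with STAG2 (chr18:42027681-42028892, in PIK3C3, CTCF fold 87.6) had STAG2 at 7.49. Of the pair with WAPL, the stronger lay 264 bp upstream of PPP4R3B (chr2:55617550-55618181, CTCF fold 9.40, PDS5A fold 63.3) and 209 bp from a RAD21 peak.

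PDS5A at these sites went with gene starts. Among members at a gene start 332 of 1303 (25.5%) had PDS5A, and among members elsewhere 620 of 16805 (3.69%). For CTCF peaks with RAD21 the shares were 73.6% and 49.0%. Seen from the genes, a PDS5A summit lay within 1 kb of 32.6% of the 1579 gene starts that had only CTCF summits without RAD21 at that distance, of 75.7% of the 5415 with a RAD21-bearing one, and of 9.11% of the 11432 with neither CTCF nor RAD21 within 1 kb. For the 1451 starts that had such a CTCF peak and no RAD21 summit of any list within 1 kb, the share was 31.2%. Over all 15138 starts with no CTCF summit within 1 kb, RAD21 or not, PDS5A was at 18.6%. STAG1 overlapped 4.22% of the members at a start and 0.785% elsewhere, and STAG2 0.614% and 0.613%. Seen from the genes, STAG1 was at 6.27% of the starts with CTCF without RAD21 and at 12.3% of those with no CTCF. These 2 sets differed in RAD21, which had a summit within 1 kb of 8.11% and 24.5% of them. STAG1 was not counted at starts with neither CTCF nor RAD21, so whether it followed PDS5A there is not known. The 6 members outside chromosome 8 with the highest PDS5A folds (93.7 to 188), chosen after their values were seen, had low CTCF folds of 3.68 to 11.3. Of these 6, 4 lay close beside a RAD21 peak, with gaps of 196 bp nearest PRND, 261 bp nearest PHF20, 102 bp nearest TLCD1 and 449 bp nearest CYP11A1, and 3 were 16241 to 37394 bp from a gene start. Near TLCD1 PDS5A reached 185 with a CTCF fold of 3.68. At IREB2, which encodes an iron-responsive RNA-binding protein, PDS5A reached 108 with a CTCF fold of 8.95, 14960 bp from RAD21.

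**Figure D3:**
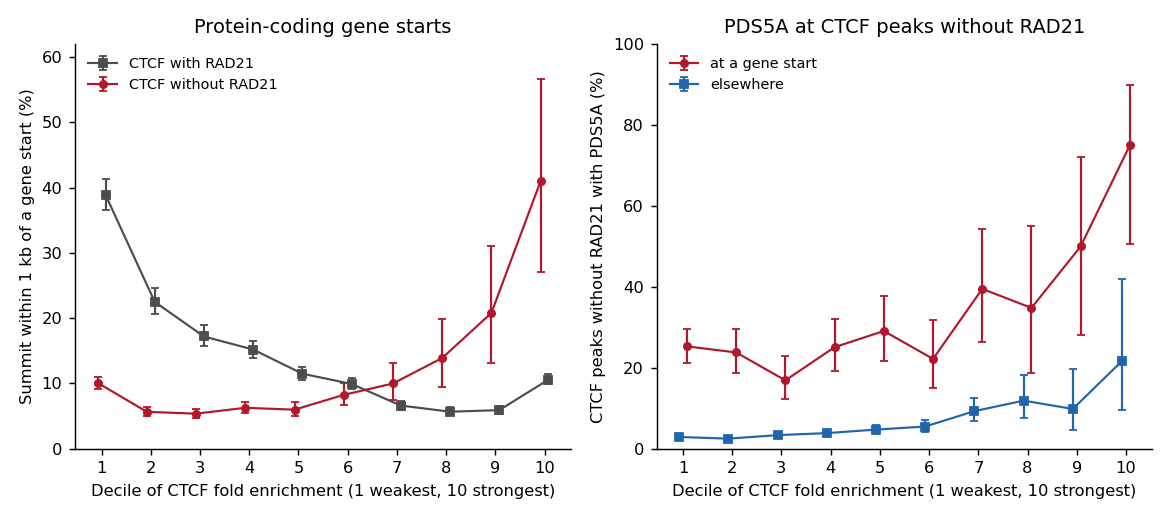
Left, percentage of CTCF peaks with the summit within 1 kb of a protein-coding gene start (y axis) by decile of CTCF fold enrichment (x axis), without RAD21 (red circles) and with RAD21 (grey squares); the curves cross, and in the strongest decile the shares are 41.0% and 10.6%. Right, percentage of CTCF peaks without RAD21 that overlap PDS5A (y axis), at a gene start (red circles) and elsewhere (blue squares), 75% and 21.7% in the strongest decile. CTCF peaks with RAD21, not drawn in the right panel, had 96.4% and 91.6% in that decile. Bars are 95% Wilson intervals.

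The rest of the gene context differed little. The members were inside a protein-coding gene at 54.9%, against 49.0% of the others, and the difference shrank to 1.99 points when the others were weighted to the members' deciles. Outside protein-coding genes, 10.6% of the members lay in a lncRNA gene against 11.8%, and 34.5% lay in neither against 39.2%. A lncRNA start with no protein-coding start was within 1 kb of 1.49% and 2.22%.

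The core consensus marked in the promoters was searched in all 34961 RefSeq promoter windows of protein-coding and lncRNA genes, of which 598 held the summit of a CTCF peak without RAD21 and 2195 that of one with RAD21. With at most 1 mismatch on either strand, an allowance chosen after seeing the data, it was found in 17.4% (14.6 to 20.6%) of the former, 27.2% (25.4 to 29.1%) of the latter, 3.18% of windows without a CTCF summit and 4.94% of all windows. Among strong peaks, fewer windows of members held a match. In the strongest 3 deciles, 6 of 52 windows of members held a match (11.5%, 5.40 to 23%), against 411 of 923 (44.5%, 41.4 to 47.8%) with RAD21, a difference of -33.0 points (-39.9 to -21.1). In the weakest 3 deciles the order was the other way, 12.4% against 7.17% (5.22 points, 1.26 to 9.58), and in the middle 4 it was 27.1% against 20.3% (6.72 points, 0.341 to 13.7). DHX34 and YTHDF2 were among the 6 strong windows with a match, and in all 6 a match lay within 50 bp of the summit. Windows of neighbouring genes can overlap, and the 52 windows came from 41 peaks. Within these groups of deciles the windows were not matched on CTCF fold. At gene starts, deciles 8, 9 and 10 held 23, 16 and 16 members but 311, 329 and 603 of the others. The part of CTCF strength in the differences was not tested.

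With no mismatch the consensus was found in 20 windows of members (3.34%), 116 with RAD21 (5.28%) and 0.472% of all windows. The difference of -1.94 points had an interval that includes 0 (-3.49 to 0.023), and its sign turned with the others weighted to the members' deciles (1.59 points, 0.086 to 3.10). As with 1 mismatch, the order depended on strength, and windows were not matched on fold within each group of deciles. Among the strongest 3 deciles it was 0 of 52 windows (upper Wilson bound 6.88%) against 98 of 923 (10.6%), in the middle 4 it was 5.80% against 1.92% (3.87 points, 1.11 to 8.01), and in the weakest 3 it was 2.36% against 0.735%. The shorter motif AGGNGGC, either strand, which can lie within the consensus, was in 53.3% and 58.7% of the windows and in 35.9% of all. For the strong windows it was 61.5% and 62.8%, with a difference of -1.30 points (-15.2 to 11.1). Of other promoter motifs, each searched on both strands, AAGATGGCG, the motif of YY1, was found in 4.52% of members' windows, 2.37% of the others and 1.76% of all, a difference of 2.15 points (0.575 to 4.20). CCGGAAG, the ETS motif, was in 19.6% and 17.0%, and 10.3% of all. GGGCGG, the GC box, was in 62.9% and 66.3%, and 45.0% of all. CCAAT differed by 3.92 points (-0.146 to 8.16) and TATAAA by 0.355 points (-1.44 to 2.59). The AAGATGGCG difference rests on 27 windows of members, and none of these differences was weighted to the members' deciles. The median GC content was 63.7% for members, 66.7% for the others and 57.7% for windows without a CTCF summit, so members' windows lay between these, below the other CTCF-bound promoters (intervals 63.0 to 64.7% and 66.3 to 67.3%).

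Spacing did not set these sites apart at the median. The nearest other CTCF summit was at a median of 11072 bp (10811 to 11349) from members and 11118 bp (10926 to 11270) from the others, a ratio of 0.996 (0.959 to 1.04). The nearest RAD21-bearing CTCF summit was 16384 bp from members and, for the others, the nearest different one was at 16443 bp. The tails differed. Members had no neighbour within 100 kb at 680 sites (3.59%) against 845 of the others (2.10%), or 2.62% of the others when weighted to the members' deciles. A neighbour within 1 kb was found for 0.949% of the members and 0.590% of the others, and the order turned around with the others weighted to those deciles (1.97%, a difference of -1.02 points, -1.33 to -0.70).

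Members followed each other along the chromosome slightly more often than others did. The next CTCF peak was a member after 33.1% of the members and 31.6% of the others, a difference of 1.55 points (0.745 to 2.36). Of 12685 runs, 8610 held a single member, and 186 runs of 5 or more held 1104 members.

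The longest runs fell in antigen receptor loci, a pattern noticed after the runs had been listed. The longest held 27 members over 637 kb (chr14:21640987-22278162), with 42 V segments of the T cell receptor alpha and delta locus in the RefSeq gene table, and no CTCF peak with RAD21 between them. V segments are the alternative gene pieces that lymphocytes join to make receptors, each with its own promoter. CTCF folds in the run went from 4.20 to 46.9 with a median of 8.76, and the nearest RAD21 peaks were 25.4 to 360 kb away. Of the 27, 0 overlapped STAG1, STAG2 or PDS5A. That is near the share of all members, 93.4% of which overlapped none of these or WAPL. A layout recurred in part of the run. In 15 of the 27 the summit lay 420 to 541 bp from the middle of a V segment, and in all 15 on its lower-coordinate side. Examples are TRAV3 (CTCF fold 5.08, 498 bp), TRAV5 (12.6, 464 bp), TRAV20 (6.58, 467 bp) and TRAV25 (21.7, 521 bp). The other peaks of the run lay 1020 to 7983 bp from the nearest V segment, those at TRAV8-4 and TRDV1 on its higher-coordinate side. They included the strongest, at TRAV26-2 (46.9, 1769 bp) and TRAV2 (46.5, 1020 bp). The layout was not compared with CTCF peaks with RAD21.

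The second longest run, 13 members (chr14:106373347-106692501), held 16 V segments of the immunoglobulin heavy locus. Within 10 kb of V segments, members were 27 of 34 CTCF peaks (79.4%, 63.2 to 89.7%) at T cell receptor alpha and delta and 23 of 36 (63.9%, 47.6 to 77.5%) at immunoglobulin heavy. The members' share at each CTCF fold decile would give 39.4% and 38.5% for peaks of those strengths. These loci came to notice through the longest runs of members, and that choice favours high shares. No excess can therefore be read at T cell receptor alpha and delta or at immunoglobulin heavy. The other receptor loci had fewer members, and their shares varied. Immunoglobulin kappa had 6 of 8 (75%, 40.9 to 92.9%, 45.1% from deciles), T cell receptor gamma 5 of 10 (50.0%, 23.7 to 76.3%, 23.4% from deciles) and immunoglobulin lambda 10 of 37 (27.0%, 15.4 to 43.0%, 16.1% from deciles). T cell receptor beta had 11 of 49 (22.4%, 13.0 to 35.9%), the share its deciles give. A pair of further runs of 12 members lay at chr1:242129052-243140900, with PLD5 and CEP170, and at chr9:137695003-138221253, with EHMT1 and CACNA1B.

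Clustered protocadherin genes also had a high share of CTCF peaks without RAD21. They encode neuronal adhesion proteins, and most variable exons have their own promoter with CTCF sites, where CTCF and cohesin are known to take part in promoter choice. Of 47 CTCF peaks in or within 10 kb of the listed protocadherin genes, 26 had no RAD21 (55.3%, 41.2 to 68.6%), where their fold deciles give 31.1%. By gene start, the classes differed: a CTCF summit without RAD21 was the strongest within 1 kb at 7 of the 13 PCDHA genes with a start in the table, 10 of 14 PCDHB genes and 4 of 20 PCDHG genes. One with RAD21 was there at 1, 3 and 13 genes. No CTCF summit lay within 1 kb at the other 5, 1 and 3 genes. Where CTCF was present without RAD21, its folds were 5.08 to 20.1 at PCDHA and 4.00 to 32.5 at PCDHB (medians 9.53 and 12.9), highest at PCDHB9. At the RAD21-bearing PCDHG starts the median fold was 31.3, with 87.2 at PCDHGA11 and 76.3 at PCDHGB7. The split by class was noticed after the values had been seen.

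**Figure D4:**
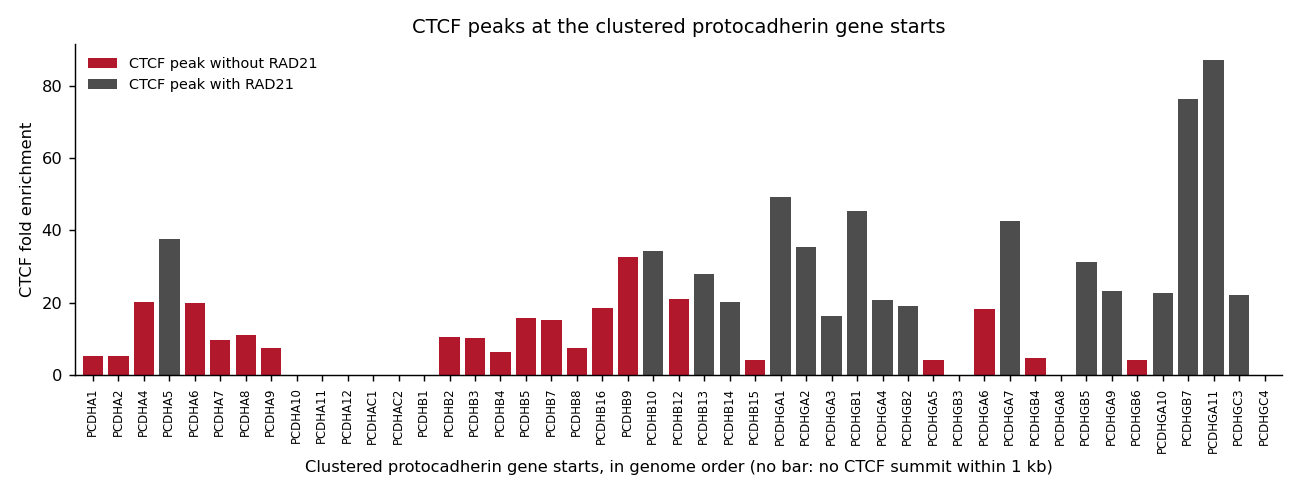
CTCF fold enrichment of the strongest CTCF peak within 1 kb (y axis) at each clustered protocadherin gene start in genome order (x axis); red bars have no RAD21 peak, grey bars have 1 or more, and no bar means no CTCF summit. Red bars prevail at PCDHA and PCDHB genes (7 and 10 starts) and grey bars at PCDHG genes (13 starts).

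The remaining gene lists lay nearer to the 32.1% of all CTCF peaks. Around genes typical of retinal pigment epithelium, with 15 of the 17 listed names found, members were 20 of 41 CTCF peaks (48.8%, and 38.8% from their deciles), including 4 of 5 at RPE65, the visual-cycle isomerase. HOX genes had 10 of 31 (32.3%, 21.5% from deciles), with 3 of 5 at HOXB3. Genes of cohesin and its regulators had 14 of 47 (29.8%, 23.4% from deciles), with 3 of 7 at STAG1 and 3 of 5 at HDAC8, the deacetylase that recycles cohesin. Imprinted genes had 19 of 62 (30.6%, 37.9% from deciles), with 6 of 13 at GRB10 and 4 of 7 at KCNQ1. Targets of YAP, TGF-beta and AP-1 had 19 of 60 (31.7%, 34.2% from deciles), with 5 of 5 at HMGA2, a chromatin architectural protein gene. Cell-cycle and p53 genes had 10 of 45 (22.2%, 34.3% from deciles). The intervals were wide, at 34.3 to 63.5% for retinal pigment epithelium genes and 18.6 to 49.9% for HOX genes. Genes named here had the most members of their list, which favours high shares, so no excess can be read from them.

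By count the genes with most members were long ones, by their span in the RefSeq gene table. KAZN held 19 of 41 CTCF peaks without RAD21 over 1225 kb, NRXN3, a neurexin gene, 18 of 30 over 1698 kb, RANBP2 15 of 37, and CDH23, DAB1, MAGI2 and NCKAP5 13 each. DLG2, EYS and FHOD3 had 12 each. Their shares ran from 40.5% to 60.0%, against 32.1% of all CTCF peaks. Choosing genes by their count of members favours high shares, so no excess can be read from these.

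Chromosomes varied in a narrow band. The share without RAD21 was lowest on chromosome 12 (29.0%) and highest on chromosome 19 (37.2%, 35.1 to 39.3%). Chromosome 19 had 748 members where its CTCF fold deciles give 599, a ratio of 1.25, and the next ratios were 1.11 on chromosome 22 and 1.09 on chromosomes 16 and X. Chromosome 19 was looked at further because its share was the highest, and that choice favours a high ratio. Near its ZNF genes members were 76 of 196 CTCF peaks (38.8%, 32.2 to 45.8%, 38.4% from deciles). Elsewhere on the chromosome they were 672 of 1817 (37.0%, 34.8 to 39.2%, 28.8% from deciles). The interval near ZNF genes is wide, so an excess there could not be judged.

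**Figure D5:**
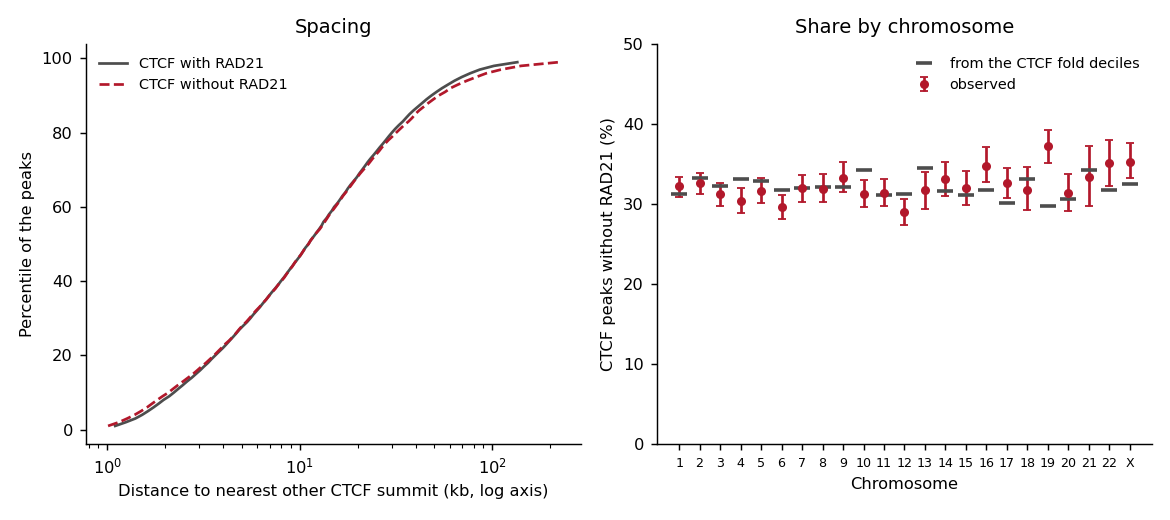
Left, percentile of CTCF peaks (y axis) by distance to the nearest other CTCF summit in kb (x axis, log scale), without RAD21 (red dashed) and with RAD21 (grey); the curves coincide around medians of 11072 and 11118 bp. Right, percentage of CTCF peaks without RAD21 on each chromosome (y axis) with 95% Wilson intervals (red) and the share its CTCF fold deciles give (grey dashes), with chromosome 19 highest at 37.2%.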

How the data were processed

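Chromatin immunoprecipitation libraries of 22 samples were labelled, of which 12 have a peak list and 10 are inputs, not analysed here on their own. The submitters' processing notes name BWA, Picard, SAMtools, bedtools, deepTools and MACS2 and the builds hg38 and mm10, with no role or version. Per the labels, the CTCF samples went through size selection and a different library kit, RAD21 and PDS5A libraries carried mouse chromatin as a spike-in (not used here), and HA chromatin had a second crosslinker. The authors called peaks per library. Their deposited lists give a fold enrichment (ratio) at the summit, the −log10 p and −log10 q, and a score. Values were used within a list only.

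Overlap meant at least 1 bp. Pileups were solved from the fold and −log10 p and were whole (within 0.05) for 100% of the peaks in 11 lists and 8.70% in HA. Gene starts came from the RefSeq promoter table of GRCh38.p14: 22132 starts of 15812 protein-coding genes, of 19974 in the gene table. Strand was checked on 3018 overlapping pairs of windows of opposite strands, all identical after reverse complement. The 2662 CTCF peaks on chromosome 8 (850 members) were left out of gene starts. Exons and introns were not analysed. Shares carry 95% Wilson intervals, differences Newcombe intervals, medians order-statistic intervals and decile-weighted differences normal intervals. All cover counting error only, since PCR fragments and peaks are not replicates, and p-values were not computed with 1 library per group. Python 3.11.15, NumPy 2.4.6, pandas 2.3.3 and SciPy 1.17.1 were used, and the functions were tested on simulated peaks. Named are the 8 strongest members, the 4 strongest with no partner, the strongest with each partner, the 4 strongest at gene starts, the 5 on each side of the rule's edge, and for each list up to 3 genes, and the 10 genes with most members. Peaks on chromosome 8 were skipped. Further genes were named after their values were seen: the remaining strongest-decile gene starts, antigen receptor and protocadherin starts, and members with high PDS5A. The members and lists were chosen with earlier results of these data known.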

Additional observations from a re-analysis of the deposited data

How the results depend on the processing

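No paired analysis was made, since each group held 1 library and no result came from a test. The 2 clones shared the same RAD21 conditions but were not used as pairs. The share of CTCF peaks without RAD21 was 34.3% with summits within 200 bp in place of overlap, 39.4% with RAD21 peaks at a −log10 q of at least 10, 6.36% in the upper 50% of CTCF peaks and 38.0% with the 2 DMSO lists. It was 34.7%, 32.9%, 33.7%, 34.9% and 32.5% without A2 DMSO, A2 24 h, D7 DMSO, D7 4 h and D7 24 h. Under the same first 4 alternatives, the ratio of median CTCF folds was 0.164, 0.153, 0.457 and 0.157, the STAG1 share 3.86%, 3.45%, 1.60% and 1.97%, the STAG2 share 1.16%, 1.06%, 1.44% and 0.956%, and the PDS5A share 7.87%, 8.46%, 10.0% and 6.72%. The gene-start difference was -0.104, 1.05, 2.72 and -2.70 points, and it turned in sign under the second and the third. The WAPL share was 0.0740% by summits and 0 in the upper 50%, where the spacing ratio was 0.901. With partner peaks at a −log10 q of at least 10, STAG1 was at 0.359%, STAG2 at 0.269% and PDS5A at 1.76% of the members, and with partner summits within 200 bp at 0.770%, 0.512% and 3.54%. Weighted to deciles, the gene-start difference was -14.3 points, the spacing ratio 0.957 and the motif difference 1.59 points, with its sign turned. The motif difference was -3.79 points with stricter RAD21 peaks and -5.38 with AGGNGGC. Alternatives chosen after seeing the data gave a gene-start difference of 12.1 points in the strongest 3 deciles, -3.67 with either gene end, and motif differences of -9.85 with 1 mismatch and -10.6 in the strongest 3 deciles. The cause was not tested for any of these. Weak peaks missed in the shallower RAD21 lists cannot be told apart from sites that lack cohesin, and strong members are few, so their intervals are wide.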
